A study of Sus scrofa with 24 samples.

Results

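Stromal progenitors of fat are recognised by proteins on their surface. The genes of 10 such proteins, PDGFRA, PDGFRB, THY1, ENG, NT5E, CD34, DPP4, DLK1, F3 and PI16, were followed here in cultured pig preadipocytes from 2 fat depots. The members were matched by gene symbol. Of the 10 genes, 9 had a row in the deposited table of 25462 genes, and all 9 passed the filter for testing, an FPKM that summed to more than 1 over the 24 libraries. FPKM counts the sequenced fragments of a gene relative to its transcript length and to the size of the library, so levels of different genes can be compared per length. No row carried the symbol THY1, whose product is the general fibroblast and mesenchymal marker CD90, and it was not analysed here.

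Primary preadipocytes had been taken from Yorkshire piglets 6 days old, from back fat under the skin (BF, subcutaneous) and from the longissimus dorsi, the long muscle along the spine, as the source of intramuscular cells (IMF). Both kinds of cell received the same treatment, an adipogenic medium with insulin, the glucocorticoid dexamethasone and 3-isobutyl-1-methylxanthine, which blocks phosphodiesterases, then medium with insulin alone, then growth medium. Polyadenylated RNA was sequenced before induction (day 0) and on days 2, 4 and 8, in 3 replicate libraries per depot and day, which gave 8 groups named BF-0d to BF-8d and IMF-0d to IMF-8d. Nothing in the labels ties a replicate number to a piglet, so p-values measure the spread between these libraries, which may be technical. The cells were not sorted on any surface protein, and no group was kept without the induction medium, so time in culture and treatment cannot be told apart.

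Adipose progenitors sit in the stroma around vessels and in connective tissue sheets. Platelet-derived growth factor receptor alpha (PDGFRA) marks most of them, while its relative PDGFRB is shared with pericytes, the contractile cells on small vessels. Within the progenitors, cells rich in DPP4 and PI16 are described as an early, multipotent population, cells rich in F3 as a population with other functions, and DLK1 (also called preadipocyte factor 1) as a protein that restrains adipogenesis. ENG, NT5E and THY1, known to cell biologists as CD105, CD73 and CD90, belong to the usual definition of cultured mesenchymal stromal cells, and CD34 marks many stromal cells in tissue but tends to be lost in culture.

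Libraries summed to 307967 to 385768 FPKM, and 9985 to 10858 genes per library reached 1 FPKM. Read counts were not part of the table, so the depth behind a value is unknown. Across the 16135 tested genes, replicate libraries of a group correlated at r of 0.962 to 0.994, with the lowest value in BF-2d. In that group replicate 3 stood apart. Its summed level of 10 pericyte and smooth muscle markers was 1025 FPKM, against 159 and 241 in the other replicates, and it is named beside the results of members that rest on it. The labels call the cells adipocytes. Of the markers of mature fat cells, ADIPOQ, PLIN1 and LEP had group means of at most 0.111 FPKM, whereas LPL, the lipase that releases fatty acids from lipoproteins, rose from 2.22 to 422 FPKM in BF and from 1.06 to 120 FPKM in IMF cells between day 0 and day 8. The endothelial markers CDH5 and KDR, the leukocyte marker PTPRC and the muscle progenitor markers PAX7, MYF5 and MYOD1 had group means of at most 0.0647 FPKM. Other genes of the same lists were present, with group means of 6.41 to 19.97 FPKM for ERG, up to 37.0 FPKM for DES and 2.97 to 8.45 FPKM for CD14. In bulk RNA of this kind, fewer cells of a type and less RNA per cell cannot be told apart.

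The 250 bases before the RefSeq start of each of the 10 genes were read from the pig genome Sscrofa11.1, the build the libraries had been aligned to. The 4 sequences shown belong to NT5E, DPP4, F3 and PI16, the members whose change over time differed between the depots. Capitals mark matches to CCAAT (the CCAAT box) or GGGCGG (the GC box) on either strand, and the sequences run 5′ to 3′ along the strand of the gene.
NT5E (chr1:54400536-54400785, plus strand): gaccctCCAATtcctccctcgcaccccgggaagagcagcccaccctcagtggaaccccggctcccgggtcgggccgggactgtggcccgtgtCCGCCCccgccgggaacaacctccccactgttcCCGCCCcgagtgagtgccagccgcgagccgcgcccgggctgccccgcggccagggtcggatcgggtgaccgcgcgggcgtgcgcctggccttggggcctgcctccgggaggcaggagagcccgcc
DPP4 (chr15:68742962-68743211, minus strand): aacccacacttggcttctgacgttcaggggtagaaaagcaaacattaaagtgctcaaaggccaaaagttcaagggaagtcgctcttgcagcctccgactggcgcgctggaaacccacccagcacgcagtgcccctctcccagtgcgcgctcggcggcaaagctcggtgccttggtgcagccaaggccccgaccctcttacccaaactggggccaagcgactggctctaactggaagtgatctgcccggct
F3 (chr4:122826768-122827017, plus strand): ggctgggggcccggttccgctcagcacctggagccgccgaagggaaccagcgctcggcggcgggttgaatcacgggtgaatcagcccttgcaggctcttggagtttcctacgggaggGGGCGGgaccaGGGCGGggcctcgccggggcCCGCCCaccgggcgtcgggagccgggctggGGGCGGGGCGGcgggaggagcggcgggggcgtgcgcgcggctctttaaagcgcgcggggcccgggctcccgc
PI16 (chr7:32600702-32600951, plus strand): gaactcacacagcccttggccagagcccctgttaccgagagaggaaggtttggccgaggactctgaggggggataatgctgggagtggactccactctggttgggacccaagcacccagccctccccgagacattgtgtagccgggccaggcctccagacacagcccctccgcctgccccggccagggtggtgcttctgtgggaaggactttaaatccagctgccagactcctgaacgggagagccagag
The stretches before NT5E and F3 were rich in G and C, at 76.8 and 77.6%, against 59.6% for DPP4, 62.8% for PI16 and a median of 57.6% over 19556 protein-coding genes. GC boxes matched before 5 members (PDGFRB, ENG, NT5E, DLK1 and F3), and 45.9% of all those genes had one. The F3 stretch held 5 of them, with first bases at positions −133 to −67 from the start, some overlapping. A CCAAT box matched before PDGFRA and NT5E (31.9% of all genes). An AP-1 element (TGAGTCA) was present before PDGFRB alone among the members, at positions −230 and −82, and in 2.9% of all genes. No member had a TATA box (TATAAA, 9.77% of genes), a cAMP response element (TGACGTCA, 1.7%) or a TEAD element (CATTCC, 10.3%) in this window. Both strands were searched for each motif. A match describes the letters only, and the transcription start used in these cells was not measured.

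Levels were compared as log2(FPKM + 1) in one limma model over the 24 libraries, and a call needed both an adjusted p (Benjamini-Hochberg) under 0.01 and a log2 change of 1 or more in either direction. Folds on this scale understate the change of low genes. Comparisons that follow each other in time share the libraries of the day between them, and depot comparisons share libraries with the time comparisons. In BF cells 4 of the 9 members changed from day 0 to day 2, where 6.59% of all tested genes were called. PDGFRA rose, and DPP4, F3 and PI16 fell. From day 2 to day 4 there were 2 (F3 up, PI16 down, background 3.35%), and from day 4 to day 8 only DPP4, which rose (background 2.93%). Day 8 differed from day 0 in 4 members, with PDGFRA and NT5E higher and CD34 and PI16 lower, where 13.7% of all genes were called.

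In IMF cells DPP4 fell from day 0 to day 2 (1 of 9 members, background 0.787%). From day 2 to day 4 limma called 0 members and 0.0372% of all genes, and 1 member, NT5E, had an unadjusted p under 0.05. PI16 fell from day 4 to day 8 (1 of 9, background 7.25%). Between day 0 and day 8 PDGFRA rose and PI16 fell (2 of 9, background 9.04%). Both depots together had 6 of 18 such calls over the 8 days, against 11.4% of all gene tests and 15.4% of those on genes with a mean of 1 FPKM in some group. Over the 3 intervals, 7 of 27 tests of members passed in BF cells, where 4.29% of all gene tests passed, and 2 of 27 in IMF cells, where 2.69% did. Among genes that reached a mean of 1 FPKM in some group these backgrounds were 5.80 and 3.64%. In fits that used only the libraries of the 2 days compared, the BF count fell to 3.

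The comparison of depots asks how the markers differ between the sources of the cells. On day 0, before induction, ENG and NT5E were higher and DPP4 and F3 lower in IMF cells (4 of 9, background 2.58%). Day 2 had 3 calls, with NT5E and PI16 higher and PDGFRA lower in IMF cells (background 4.74%). On day 4 there were 5 calls, with ENG and PI16 higher and PDGFRA, PDGFRB and F3 lower (background 11.3%). Day 8 again had 5, with ENG, NT5E and PI16 higher and DPP4 and F3 lower (background 6.96%). Over the 4 days 17 of 36 tests passed, 9 higher and 8 lower in IMF cells, against 6.40% of all gene tests (3.88% higher and 2.52% lower) and 8.66% of those on genes with a mean of 1 FPKM in some group. The median log2 difference of the members, IMF minus BF, lay between −0.19 and 0.49 on the 4 days, beside 0.02 to 0.07 for all tested genes.

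Whether a change over time differed between depots was tested as the IMF change minus the BF change. From day 0 to day 2 it was called for 4 of 9 members (NT5E, DPP4, F3 and PI16, background 2.45%), from day 2 to day 4 for 3 (NT5E, F3 and PI16, background 3.06%), from day 4 to day 8 for 3 (NT5E, DPP4 and PI16, background 6.39%), and over the 8 days for 1 (NT5E, background 4.98%). In at least 1 of these contrasts 4 of 9 members were called, and 12.2% of all tested genes. Together 11 of 36 tests passed, against 4.22% of all gene tests and 5.68% of those on genes with a mean of 1 FPKM in some group. The count was 7 without IMF-2d replicate 3 and 5 on the libraries of the compared groups alone.

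**Figure D1:**
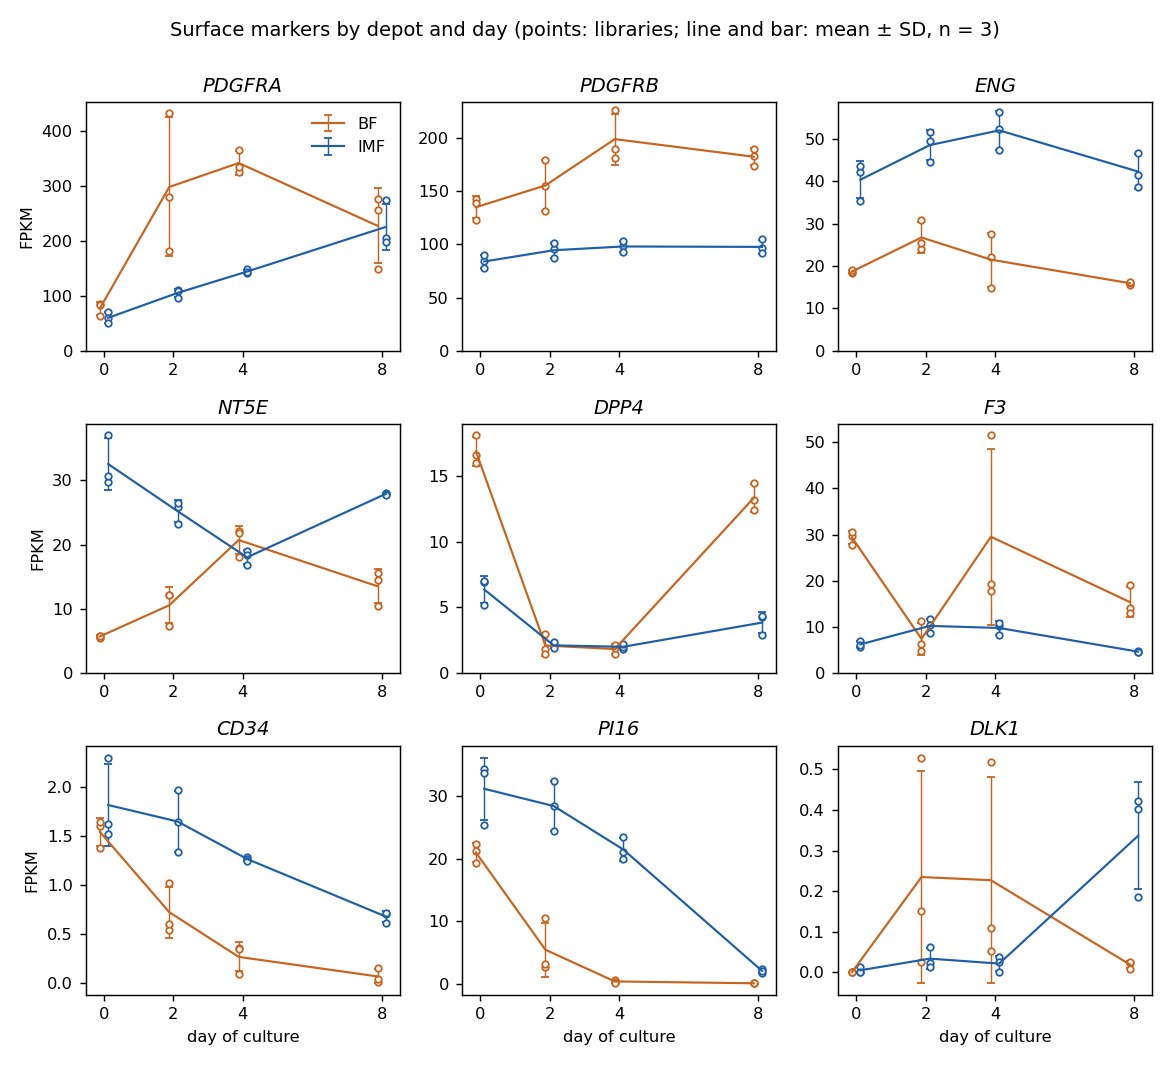
Level of each of the 9 measured surface markers (vertical axes, FPKM) by day of culture (horizontal axes) in subcutaneous (BF) and intramuscular (IMF) cells, with a point for each library and the mean ± SD of 3 libraries as a line with bars. ENG lay higher in every IMF library than in any BF library, PDGFRB the other way round, and PI16 fell by day 2 in BF cells and after day 4 in IMF cells.

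**Figure D2:**
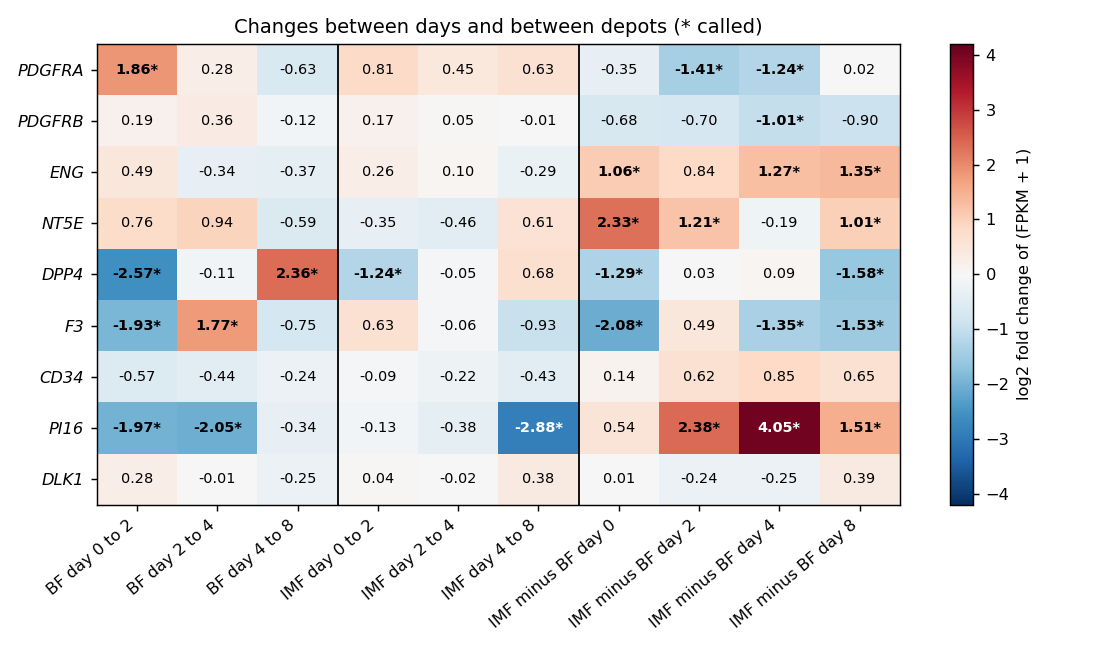
Log2 fold changes of FPKM + 1 for the 9 members (rows) in 10 comparisons (columns), with called values in bold and starred. The 3 columns on the left are intervals in BF cells, the next 3 those in IMF cells, and the last 4 the depot difference by day, where PI16 reached 4.05 on day 4.

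PDGFRA, the receptor for PDGF-A, PDGF-C and other dimers and the general label of fibroblastic progenitors, was one of the most abundant members. Its FPKM in BF cells was 63.4, 84.9 and 82.7 on day 0, 433, 182 and 279 on day 2, 325, 335 and 366 on day 4, and 149.5, 277 and 257 on day 8. In IMF cells it was 70.3, 59.2 and 50.9 on day 0, 110.4, 109 and 97.0 on day 2, 148, 142 and 143 on day 4, and 205, 274 and 198 on day 8. The BF libraries of day 2 spread widely but all lay above those of day 0, and the IMF libraries of each day lay above those of the day before. PDGFRA rose 3.87-fold in the means from day 0 to day 2 in BF cells (log2 1.86 ± 0.24 SE, adjusted p = 1.08e-05). No interval in IMF cells passed, with log2 changes of 0.81, 0.45 and 0.63, but the change from day 0 to day 8 did (3.75-fold, log2 1.89 ± 0.24, adjusted p = 4.47e-06), as it did in BF cells (2.96-fold, log2 1.51 ± 0.24, adjusted p = 3.31e-05). The depots overlapped on day 0 and on day 8 and stood apart between, with IMF cells lower on day 2 (log2 −1.41 ± 0.24, adjusted p = 3.52e-04) and day 4 (log2 −1.24 ± 0.24, adjusted p = 3.70e-04). The difference between the depots' changes was −1.05 from day 0 to day 2 (adjusted p = 0.0469) and 1.26 from day 4 to day 8 (adjusted p = 0.0143), neither of them called. The second was called with median ratio scaling (1.29, adjusted p = 0.00585) and without BF-2d replicate 1 or 2 (adjusted p = 0.00429 and 0.00389). On the compared libraries alone, the BF rise to day 2 and the day 2 depot difference lost their calls (adjusted p = 0.0156 and 0.0512). The day 2 and day 4 depot calls were lost with replicate number as a block within depot (adjusted p = 0.0123 and 0.0120). That fit sets a depot difference at the first replicate number, not at the group means. These block losses therefore do not measure blocking alone.

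PDGFRB, which binds PDGF-B and PDGF-D and is shared with pericytes, moved little in time. BF libraries ranged from 123 to 143 FPKM on day 0, 132 to 179.9 on day 2, 181 to 226 on day 4 and 174 to 190.2 on day 8, and no interval was called. In IMF cells the range over all 12 libraries was 77.5 to 104.7 FPKM. Every BF library was thus above every IMF library, with a ratio of the group means, BF to IMF, of 1.61, 1.64, 2.03 and 1.87 on the 4 days. Only day 4 met the fold threshold (log2 −1.01 ± 0.12, adjusted p = 1.30e-06), although the adjusted p was 4.15e-04 or lower on the other days as well. The day 4 value sits at the threshold and fell short of it without BF-4d replicate 2 (−0.91), without IMF-4d replicate 3 (−0.97), with quantile normalization (−0.92) and with the block within depot (−0.97), while median ratio scaling carried day 8 over it (−1.03). The block fit sets a depot difference at the first replicate number, so its value is not a difference of group means.

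The ratio of the pair was higher on later days in both depots, a description for which no test was run. PDGFRA to PDGFRB was 0.568 ± 0.046 (SD, n = 3) in BF cells on day 0, 1.91 ± 0.77 on day 2, 1.74 ± 0.27 on day 4 and 1.26 ± 0.42 on day 8. In IMF cells the ratio was 0.720 ± 0.136, 1.12 ± 0.15, 1.47 ± 0.09 and 2.33 ± 0.58 on the same days. All 6 day 0 libraries were at 0.829 or lower and, except for BF-8d replicate 1 at 0.786, all later libraries were at 0.957 or higher. Over the lists of neighbouring genes used here, 88 genes were tested and 258 calls were made, of which 83 were lost when some library of the groups compared was left out. The counts given for these lists are those with all 24 libraries, and small counts can go to 0 without 1 library. Of the PDGF ligands, 3 of 4 were tested and PDGFB was not. PDGFD, a ligand of PDGFRB, fell in BF cells from 18.5 to 3.85 FPKM over 8 days (log2 −2.01 ± 0.25) and was 21.8 FPKM in IMF-4d cells. PDGFA fell over 8 days in BF (2.31 to 0.443 FPKM) and in IMF cells (6.79 to 1.11 FPKM). PDGFC rose in BF cells from day 2 to day 4, from 9.96 to 28.0 FPKM. Over the 8 comparisons within a depot, ligands were called higher 1 time and lower 4 times, and between depots higher in IMF cells 5 times and lower 0 times.

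**Figure D3:**
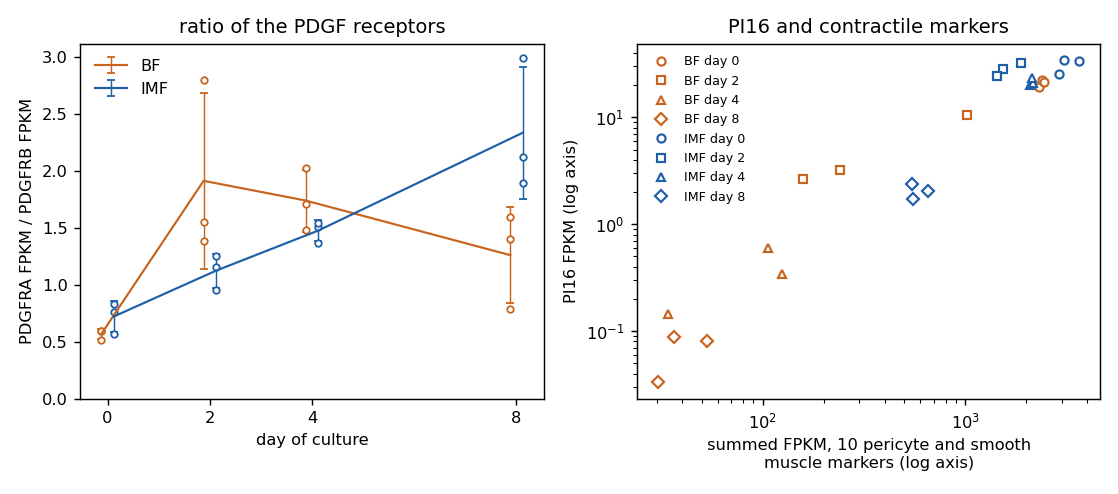
Left, PDGFRA FPKM divided by PDGFRB FPKM by day of culture, with a point per library and the mean ± SD of 3 libraries. Right, PI16 FPKM against the summed FPKM of 10 pericyte and smooth muscle markers in each of the 24 libraries, both on log axes, where the BF-2d library with 1025 summed FPKM has the highest PI16 of its group.

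ENG (endoglin, a co-receptor of the TGF-beta and BMP family) separated the depots throughout. BF libraries held ENG at FPKM values of 18.5, 18.5 and 19.2 on day 0, 23.96, 25.5 and 30.8 on day 2, 22.2, 27.5 and 14.8 on day 4 and 15.6, 15.9 and 16.4 on day 8. In IMF cells it was 42.2, 35.4 and 43.5 on day 0, 49.5, 44.5 and 51.5 on day 2, 52.3, 56.4 and 47.4 on day 4, and 38.8, 41.4 and 46.7 on day 8. The lowest IMF library, at 35.4, was above the highest BF library, at 30.8, while days within a depot overlapped or differed by less than the fold threshold. IMF cells were higher on day 0 (2.16-fold, log2 1.06 ± 0.15, adjusted p = 5.51e-05), day 4 (2.42-fold, log2 1.27 ± 0.15, adjusted p = 1.99e-06) and day 8 (2.65-fold, log2 1.35 ± 0.15, adjusted p = 1.74e-06). On day 2 the ratio was 1.82 and the log2 difference 0.84 (adjusted p = 6.08e-04), under the fold threshold. The day 0 difference went under that threshold with median ratio scaling (0.98) and with quantile normalization (0.97).

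Of 10 receptors, inhibitors and targets of the same signalling family, all were tested. In BF cells 4 rose from day 0 to day 2 (TGFBR3, SMAD7, ID1 and ID3) and 4 fell from day 4 to day 8 (TGFBR3, SMAD6, SMAD7 and ID3). The rise of TGFBR3 was lost without any BF-0d library or BF-2d replicate 1 (log2 0.66 to 1.07), that of SMAD7 without BF-2d replicate 1 (0.86), and the fall of SMAD6 without BF-4d replicate 1 or 2 or BF-8d replicate 1 (−0.80 to −0.97). ID1 and ID3, immediate BMP targets that block differentiation factors, went from 33.9 to 221 and from 244 to 1099 FPKM from day 0 to day 2 in BF cells (log2 2.54 ± 0.29 and 2.14 ± 0.22). In IMF cells 1 gene rose and 1 fell from day 0 to day 2, with 0 called from day 2 to day 4 and 1 lower from day 4 to day 8. The IMF rise, of TGFBR3, was lost without any IMF-0d or IMF-2d library (log2 1.09 to 1.24, adjusted p of 0.0189 to 0.0433). Between depots the family had 1 higher and 0 lower on day 0, 1 and 1 on day 2, 0 and 2 on day 4, and 1 and 1 on day 8, with median log2 differences from −0.10 to 0.17. The day 4 call of ID1 was lost without BF-4d replicate 1 or 2 or any IMF-4d library (log2 −0.86 to −1.10). Both day 2 calls, of TGFBR1 and ID1, were also lost without some library of the groups compared. The log2 changes of ENG itself in the same 3 intervals of BF cells were 0.49, −0.34 and −0.37.

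NT5E (CD73), the enzyme on the cell surface that makes adenosine from AMP, converged between the depots and parted again. The BF values were 5.47, 5.79 and 5.72 FPKM on day 0, 12.1, 12.1 and 7.33 on day 2, 18.1, 22.1 and 21.9 on day 4, and 14.5, 10.5 and 15.5 on day 8. In IMF cells it was 37.2, 29.8 and 30.7 on day 0, 25.9, 26.4 and 23.3 on day 2, 18.9, 16.8 and 18.3 on day 4, and 28.0, 27.9 and 27.8 on day 8. The depots did not overlap on days 0, 2 and 8 and did overlap on day 4. IMF cells were higher by 5.75-fold on day 0 (log2 2.33 ± 0.15, adjusted p = 2.20e-09), by 2.39-fold on day 2 (log2 1.21 ± 0.15, adjusted p = 1.48e-05) and by 2.07-fold on day 8 (log2 1.01 ± 0.15, adjusted p = 4.43e-05), with −0.19 ± 0.15 on day 4.

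NT5E and PI16 had a called difference between the depots' changes in all 3 intervals, and NT5E alone also over the 8 days. For NT5E it was −1.11 ± 0.22 from day 0 to day 2 (adjusted p = 0.00309), −1.40 ± 0.22 from day 2 to day 4 (adjusted p = 6.90e-04), 1.20 ± 0.22 from day 4 to day 8 (adjusted p = 6.83e-04) and −1.31 ± 0.22 over the 8 days (adjusted p = 3.48e-04). The rise over 8 days in BF cells was 2.38-fold (log2 1.10 ± 0.15, adjusted p = 6.70e-06), and the single intervals were under the threshold in both depots. The BF change from day 2 to day 4 passed without BF-2d replicate 1 (1.05), BF-2d replicate 2 (1.05) or BF-4d replicate 1 (1.03). The depot calls of day 2 and day 8 are close to that threshold. They were lost without BF-2d replicate 3 (0.99) and without BF-8d replicate 2 (0.85), the day 8 call also with median ratio scaling (0.89) and quantile normalization (0.87). The difference in the first interval was lost without IMF-0d replicate 1 (adjusted p = 0.0112) and without IMF-2d replicate 3 (adjusted p = 0.0108), and the first and second intervals and the day 2 depot difference lost their calls on the compared libraries alone (adjusted p of 0.0197 to 0.0283).

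Of 10 other genes of extracellular adenosine, 8 were tested. ENTPD1 and ENTPD3 make the AMP that NT5E uses. ENTPD3 was higher in IMF cells on day 0 (15.3 against 5.41 FPKM, log2 1.35 ± 0.16) and had called differences between the depots' changes of −1.03, −1.09 and 1.38 in the 3 intervals, in the same directions as NT5E. The first of these calls was lost without any BF-0d, BF-2d, IMF-0d or IMF-2d library other than BF-2d replicate 3 and IMF-2d replicate 3 (values of −0.90 to −1.06), and the second without BF-2d replicate 3, BF-4d replicate 2 or 3, IMF-2d replicate 3 or IMF-4d replicate 2 (−0.89 to −1.02). ENTPD1 was higher in IMF cells on day 2 (4.98 against 1.08 FPKM) and day 8 (3.41 against 0.638 FPKM). SLC29A1, an adenosine transporter, fell in BF cells from 18.3 to 6.77 FPKM by day 2 (3.97 FPKM without BF-2d replicate 3), and ADA, which degrades adenosine, was higher in IMF cells on day 4 (1.56 against 0.193 FPKM). Between depots 1, 1, 2 and 1 genes of this list were called higher in IMF cells on the 4 days and 0 lower. Within BF cells 0 rose and 1 fell, 1 rose and 0 fell, and 1 rose and 1 fell in the 3 intervals, where the rise from day 2 to day 4, of ENTPD3, was lost without BF-2d replicate 3 (log2 0.88) or BF-4d replicate 2 (0.98), and within IMF cells only ENTPD3 changed, from day 0 to day 2, when it fell.

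DPP4 (CD26), a peptidase on the cell surface that trims chemokines and incretins and labels early progenitors, dropped in the first interval and, in BF cells, came back. BF cells had DPP4 levels (FPKM) of 16.01, 16.6 and 18.1 on day 0, 1.83, 1.46 and 2.96 on day 2, 1.41, 1.89 and 2.16 on day 4, and 12.4, 13.2 and 14.5 on day 8. In IMF cells it was 6.94, 6.98 and 5.17 on day 0, 2.10, 1.87 and 2.32 on day 2, 1.82, 1.94 and 2.20 on day 4, and 4.24, 4.38 and 2.89 on day 8. Day 2 and day 4 libraries of both depots shared a narrow range of 1.41 to 2.96 FPKM, and every day 0 and day 8 library of BF cells was at 12.4 or more. The fall by day 2 was 8.12-fold in BF cells (log2 −2.57 ± 0.16, adjusted p = 1.65e-09) and 3.04-fold in IMF cells (log2 −1.24 ± 0.16, adjusted p = 5.92e-05). The later rise from day 4 to day 8 was 7.35-fold in BF cells (log2 2.36 ± 0.16, adjusted p = 5.13e-09) and 1.93-fold in IMF cells, where the log2 change of 0.68 ± 0.16 stayed under the fold threshold (adjusted p = 0.00255).

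By day 8 DPP4 in BF cells was back at a log2 difference of −0.32 ± 0.16 from day 0 (95% interval −0.66 to 0.01). The depots differed on day 0 (IMF 2.66-fold lower, log2 −1.29 ± 0.16, adjusted p = 8.40e-06) and on day 8 (3.48-fold lower, log2 −1.58 ± 0.16, adjusted p = 3.56e-07) and overlapped on the days between, on day 2 through BF-2d replicate 3 alone. Their changes differed in the first interval by 1.32 ± 0.23 (adjusted p = 0.00129) and in the last by −1.67 ± 0.23 (adjusted p = 4.07e-05). Each of these calls was kept when any single library was left out, and the difference in the first interval was lost on the compared libraries alone (adjusted p = 0.0121).

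F3 (tissue factor, CD142), the cell surface receptor of coagulation factor VII, was higher in BF cells on every day but day 2. F3 levels of BF cells were 27.7, 29.7 and 30.6 FPKM on day 0, 4.71, 6.18 and 11.2 on day 2, 17.9, 19.2 and 51.5 on day 4, and 14.1, 13.02 and 19.0 on day 8. In IMF cells it was 5.56, 6.87 and 6.09 on day 0, 11.6, 8.61 and 10.4 on day 2, 8.12, 10.2 and 10.9 on day 4, and 4.62, 4.66 and 4.48 on day 8. BF-4d replicate 3 was far above its group, and the same library had the highest CD14, a monocyte marker, at 17.1 FPKM, where the mean of the other BF-4d libraries was 2.48 FPKM. The leukocyte genes LCP1 (0.724 against 0.242 FPKM) and ITGAM (0.150 against 0.0559 FPKM) were also higher in it. PTPRC and CD3E of that list were at 0 in every BF-4d library. Genes of other lists stood out in it as well, such as SEMA3C (292 against 90.4 FPKM) and ERG (12.3 against 4.08 FPKM). The part of monocytes in the F3 value was not tested. The depots overlapped on day 2 alone, and there through BF-2d replicate 3, without which every IMF-2d library was above every BF-2d library. In BF cells F3 fell 3.99-fold by day 2 (log2 −1.93 ± 0.29, adjusted p = 4.34e-05) and rose 4.01-fold from day 2 to day 4 (log2 1.77 ± 0.29, adjusted p = 2.64e-04), while in IMF cells the log2 changes were 0.63, −0.06 and −0.93 and none was called. IMF cells were 4.75-fold lower on day 0 (log2 −2.08 ± 0.29, adjusted p = 3.04e-05), 3.04-fold lower on day 4 (log2 −1.35 ± 0.29, adjusted p = 7.83e-04) and 3.35-fold lower on day 8 (log2 −1.53 ± 0.29, adjusted p = 3.51e-04).

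The depots' F3 changes differed by 2.57 ± 0.41 from day 0 to day 2 (adjusted p = 7.15e-04), the largest such value among the members, and that call was kept in every fit. From day 2 to day 4 the difference was −1.83 ± 0.41 (adjusted p = 0.00652), and it lost its call without BF-2d replicate 1 or 2 or without any of the IMF-2d and IMF-4d libraries (values of −1.60 to −1.94, adjusted p of 0.0103 to 0.0209). Without BF-4d replicate 3 the BF rise from day 2 to day 4 was 2.52-fold (log2 1.298) and kept its call, and the day 4 depot difference was 1.90-fold (log2 −0.87, adjusted p = 0.0039), under the fold threshold. On the compared libraries alone, the BF rise from day 2 to day 4, the day 4 depot difference and the difference between changes from day 2 to day 4 were not called (adjusted p = 0.156, 0.0356 and 0.0689), nor was the last of these without the filter on low genes (adjusted p = 0.0130).

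Of 10 genes around tissue factor, 9 had a row and 7 were tested. TFPI and TFPI2 encode Kunitz inhibitors, the first of which blocks the complex of tissue factor and factor VII. TFPI2 was among the most changed genes of any list, from 37.4 FPKM in IMF-0d to 1318 FPKM in IMF-8d cells (log2 5.10 ± 0.37) and from 129.9 to 527 FPKM between BF-2d and BF-4d cells. TFPI rose in BF cells from 0.349 to 2.99 FPKM from day 2 to day 4 (log2 1.54 ± 0.14), the interval in which F3 rose there. The thrombin receptor relatives F2RL2 (16.6 to 4.69 FPKM over 8 days in BF cells) and F2RL3 (1.21 FPKM in BF-4d cells and listed at 0 in IMF-4d cells) were called 1 time each, and lost the call without any BF-0d library or BF-8d replicate 1 or 2 (F2RL2, log2 −1.52 to −1.67) and without BF-4d replicate 1 or 2 (F2RL3, −0.66 and −0.98). On day 4 TFPI, TFPI2 and F2RL3 were lower in IMF cells, and on day 8 TFPI2 was higher there. The intervals had 1, 2 and 0 genes called higher in BF cells and 0, 0 and 1 in IMF cells, with none lower.

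**Figure D4:**
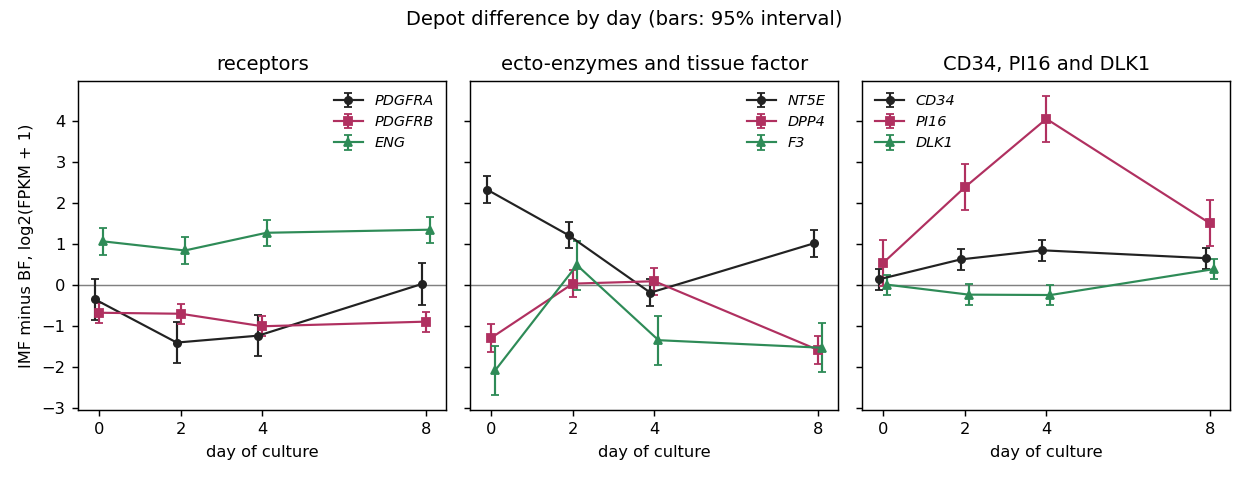
Difference between the depots, IMF minus BF, on the log2(FPKM + 1) scale (vertical axis) by day of culture for the 9 members, with bars for the 95% interval from limma. ENG stayed between 0.84 and 1.35, the intervals of NT5E, DPP4 and F3 included 0 on day 2 or day 4, and PI16 reached 4.05 on day 4.

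PI16, a secreted and surface-bound peptidase inhibitor of the CAP family that labels fibroblasts of connective tissue sheets, had the widest range of the members that reached 1 FPKM. In BF cells its FPKM was 19.4, 22.4 and 21.3 on day 0, 2.67, 3.20 and 10.4 on day 2, 0.605, 0.341 and 0.145 on day 4, and 0.0803, 0.0330 and 0.0880 on day 8. In IMF cells it was 25.5, 34.4 and 33.8 on day 0, 28.4, 24.5 and 32.4 on day 2, 19.9, 21.1 and 23.4 on day 4, and 1.72, 2.40 and 2.03 on day 8. Each BF day was separate from the one before, and IMF cells of day 4 still had the level of BF cells of day 0, with overlapping libraries. The ratio of BF means between day 0 and day 8 was 313 (log2 −4.36 ± 0.27 on the scale with 1 FPKM added, adjusted p = 1.75e-10), with called falls from day 0 to day 2 (3.86-fold, log2 −1.97 ± 0.27, adjusted p = 1.72e-05) and from day 2 to day 4 (14.9-fold, log2 −2.05 ± 0.27, adjusted p = 4.12e-05). In IMF cells the fall came from day 4 to day 8 (10.5-fold, log2 −2.88 ± 0.27, adjusted p = 1.16e-07), after changes of −0.13 and −0.38. Without BF-2d replicate 3, the library with the highest PI16 of its group, the BF changes of the first and second intervals were −2.48 and −1.54 (7.16- and 8.07-fold in the means), and both kept their calls.

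For PI16 the depots did not pass the test on day 0 (log2 0.54 ± 0.27, adjusted p = 0.216). IMF cells were higher by 5.23-fold on day 2 (log2 2.38 ± 0.27, adjusted p = 3.10e-06), by 59.1-fold on day 4 (log2 4.05 ± 0.27, adjusted p = 8.25e-10) and by 30.6-fold on day 8 (log2 1.51 ± 0.27, adjusted p = 2.05e-04). Without BF-2d replicate 3 the day 2 ratio of the means was 9.69-fold. The depots' changes differed by 1.84 ± 0.38 in the first interval (adjusted p = 0.00415), 1.67 ± 0.38 in the second (adjusted p = 0.00745) and −2.54 ± 0.38 in the third (adjusted p = 1.04e-04). The third was kept without any single library and lost with 0.1 FPKM added in place of 1 (−1.98, adjusted p = 0.0119), a setting under which the net difference over 8 days became 3.13 (adjusted p = 4.23e-04). The first was lost without BF-0d replicate 2 or 3, BF-2d replicate 1 or 2, IMF-0d replicate 1 or IMF-2d replicate 1 or 3 (1.54 to 1.84, adjusted p of 0.0104 to 0.0148). The second was lost in 12 of 24 such fits (without BF-0d replicate 1, 2 or 3, BF-4d replicate 2 or 3, BF-8d replicate 3, or any IMF-2d or IMF-4d library), with values of 1.55 to 1.77 and adjusted p of 0.0101 to 0.0227. On the compared libraries alone the BF falls of the first and second interval and the day 2 depot difference were not called either (adjusted p of 0.0264 to 0.135), nor were the differences between changes in those intervals (adjusted p = 0.0387 and 0.0722). The first of these differences was also lost with 0.1 FPKM added (adjusted p = 0.0150), and the second without the filter (adjusted p = 0.0142) and with the block within depot (adjusted p = 0.0127).

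CD34, the sialomucin used to sort stromal cells from fresh tissue, declined with PI16 from a lower level. Levels in BF cells were 1.38, 1.61 and 1.64 FPKM on day 0, 0.543, 0.609 and 1.02 on day 2, 0.362, 0.346 and 0.0961 on day 4, and 0.150, 0.0139 and 0.0407 on day 8. IMF libraries ranged from 1.53 to 2.30 on day 0, 1.34 to 1.97 on day 2, 1.25 to 1.29 on day 4 and 0.618 to 0.717 on day 8. Every IMF library of day 8 was above every BF library of days 4 and 8. The fall over 8 days was called in BF cells (22.7-fold in the means, log2 −1.25 ± 0.12, adjusted p = 6.71e-08) and stayed under the fold threshold in IMF cells (2.68-fold, log2 −0.74 ± 0.12, adjusted p = 7.67e-05). IMF cells were higher by 2.28-, 4.73- and 9.96-fold on days 2, 4 and 8, with log2 differences of 0.62, 0.85 and 0.65 (adjusted p of 1.43e-05 to 0.00101), and with 0.1 FPKM added the day 4 and day 8 differences (2.00 and 2.29), the IMF fall over 8 days (−1.28), the BF fall from day 2 to day 4 (−1.22, adjusted p = 0.00823) and the difference between the depots' changes over 8 days (2.09, adjusted p = 0.00300) passed. Without BF-8d replicate 1 the BF-8d mean was 0.0273 FPKM, which made the BF fall over 8 days 56.6-fold and the day 8 depot ratio 24.9. Over the 24 libraries, CD34 and PI16 correlated at r = 0.965 on the log2 scale, a description over groups that share depots and days. Of the 5 relatives of CD34 and DPP4 with a row, 3 were tested, and PODXL2 was the one with calls, higher in IMF-8d cells (4.54 FPKM) than in IMF-4d (1.73 FPKM) or BF-8d cells (1.38 FPKM). The first of these calls was lost without IMF-4d replicate 3 or IMF-8d replicate 3 (log2 0.97 and 0.92).

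Of the 10 markers of pericytes and smooth muscle, 5 fell and 1, RGS5, rose over 8 days in each depot. The BF rise of RGS5 lost its call without BF-8d replicate 1 (adjusted p = 0.0170). Their summed level, most of it from ACTA2 and TAGLN, was 2304 to 2447 FPKM in BF-0d, 159 to 1025 in BF-2d, 34.2 to 124 in BF-4d and 30.5 to 53.0 in BF-8d libraries, and 2912 to 3660, 1437 to 1884, 2081 to 2160 and 543 to 658 FPKM in IMF libraries of the same days. All 10 were tested. In BF cells 5 fell by day 2, 3 fell and 1 rose from day 2 to day 4, and 1 fell and 2 rose from day 4 to day 8. In IMF cells 1, 0 and 3 fell and 0, 0 and 1 rose. In IMF cells the sum was higher on day 4 than on day 2, while the means of PI16 and CD34 were lower on day 4. Between depots 1, 6, 6 and 4 were higher and 1, 0, 1 and 0 lower in IMF cells on the 4 days. The higher gene on day 0, CNN1, lost its call without any BF-0d or IMF-0d library (adjusted p of 0.0166 to 0.0492), and the lower one was ABCC9. Of the 6 on day 2, NOTCH3 (log2 0.98), ACTA2 (adjusted p = 0.0216) and TAGLN (adjusted p = 0.0366) were lost without BF-2d replicate 2. ACTA2, the smooth muscle actin, went from 1600 to 6.49 FPKM in BF and from 1889 to 191 FPKM in IMF cells, TAGLN from 720 to 11.6 and from 1183 to 301 FPKM, and MYLK, the kinase of myosin light chain, from 18.5 to 0.349 and from 54.6 to 2.05 FPKM. Without BF-8d replicate 1 the BF-8d mean of ACTA2 was 3.71 FPKM, without IMF-8d replicate 2 the IMF-8d mean of MYLK was 1.301 FPKM, and the IMF fall of TAGLN lost its call without IMF-0d replicate 3 or IMF-8d replicate 2 (adjusted p = 0.0110 and 0.0114). RGS5, a marker of pericytes, rose instead, from 2.00 to 32.6 FPKM between days 2 and 4 in BF cells, where it then fell to 3.43 FPKM, and from 1.17 to 69.6 FPKM over 8 days in IMF cells. Without BF-4d replicate 2 its BF-4d mean was 21.1 FPKM, without BF-2d replicate 1 its BF-2d mean was 1.28 FPKM, and without BF-8d replicate 1 its BF-8d mean was 1.87 FPKM. The part of these contractile genes or of pericytes in the PI16 and CD34 results was not tested.

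DLK1 was barely detected. It was listed at 0 in the 3 BF-0d libraries, in 2 of IMF-0d and in 1 of IMF-4d, and its highest value in any library was 0.529 FPKM (BF-2d replicate 1). BF libraries ranged from 0.0250 to 0.529 FPKM on day 2, 0.0522 to 0.518 on day 4 and 0.00838 to 0.0253 on day 8. IMF libraries were at 0.0625 or less up to day 4 and at 0.403, 0.185 and 0.422 on day 8, above each IMF library of earlier days. No comparison was called, and with 0.1 FPKM added the IMF rises from day 4 to day 8 (log2 1.81, adjusted p = 0.00565) and from day 0 to day 8 (2.01, adjusted p = 0.00219), the day 8 depot difference (1.83, adjusted p = 0.00484) and the difference between the depots' changes from day 4 to day 8 (adjusted p = 0.00376) passed. Of 12 Notch receptors, ligands and targets, 10 were tested. NOTCH1 rose in BF cells from 1.78 to 16.7 FPKM over 8 days (log2 2.68 ± 0.15) while IMF cells went from 4.66 to 4.97 FPKM, a difference of −2.60 ± 0.22. The ligand gene JAG1 fell over 8 days in both depots (14.9 to 3.59 and 7.77 to 3.07 FPKM), HES1, a Notch target, fell in BF cells (11.7 to 4.62 FPKM), and NOTCH3 rose in BF cells from 2.62 to 10.1 FPKM from day 4 to day 8. In BF cells 1, 1 and 1 of these genes rose and 1, 0 and 1 fell in the 3 intervals, in IMF cells 0 did either, and between depots 1, 2, 2 and 1 were higher and 0, 0, 1 and 1 lower in IMF cells.

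Of 25 further surface and matrix markers of stromal cells and their progenitors, 23 had a row and 22 were tested. In BF cells 0 rose and 5 fell by day 2, 0 rose and 6 fell from day 2 to day 4, and 2 rose and 0 fell from day 4 to day 8. In IMF cells the counts were 1 and 1, 0 and 0, and 5 and 1. IMF cells had 0, 4, 6 and 7 of them higher and 2, 2, 1 and 0 lower on the 4 days, with median log2 differences of 0.21, 0.35, 0.28 and 0.39. MFAP5, a microfibril protein expressed with PI16 in connective tissue sheets, went from 77.6 to 1.79 FPKM in BF cells (log2 −4.85 ± 0.29), but IMF cells held 77.7 FPKM on day 4 and 44.1 FPKM on day 8, and the depots' changes over 8 days differed by 3.86 ± 0.41. FAP, a peptidase related to DPP4, was 18.2 FPKM in BF-8d and 70.8 FPKM in IMF-8d cells (log2 1.89 ± 0.33), the opposite order to DPP4. VCAM1, an adhesion molecule, rose over 8 days in BF (26.2 to 115 FPKM) and IMF cells (6.42 to 60.9 FPKM). CSPG4 (NG2), shared with pericytes, fell in BF cells from 13.6 to 3.23 FPKM by day 2 (0.837 FPKM without BF-2d replicate 3) and rose from 1.04 to 6.06 FPKM between days 4 and 8, a call lost without BF-4d replicate 1 or BF-8d replicate 3 (adjusted p = 0.0123 and 0.0128), and in IMF cells it fell from 29.3 to 5.74 FPKM over 8 days.

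Most markers of other cell types were low. Of 13 adipocyte genes 12 had a row and 7 were tested, and LPL, CEBPA, PPARG and FABP4 held the calls. Summed, the list went from 28.0 to 31.2 FPKM in BF-0d libraries to 299 to 643 in BF-8d, and from 22.9 to 27.1 in IMF-0d to 132 to 170.5 in IMF-8d libraries, which LPL dominated. CEBPA peaked at 9.37 FPKM in BF-2d and 5.89 FPKM in IMF-4d cells, PPARG was 3.003 FPKM in BF-0d and 0.256 FPKM in IMF-0d cells, and FABP4 was 3.47 FPKM in BF-8d (2.21 FPKM without replicate 1) and 0.404 FPKM in IMF-8d cells (0.268 FPKM without replicate 3). Over 8 days in BF cells LPL was called higher and PPARG lower. FABP4 was not called there, at 1.71-fold higher, or 1.09-fold without BF-8d replicate 1. In the intervals, 2, 1 and 1 rose and 1, 1 and 0 fell in BF cells, and 0, 0 and 1 rose and 0, 0 and 1 fell in IMF cells, while 0 were higher and 2, 3, 1 and 1 lower in IMF cells on the 4 days. Of the endothelial list 4 of 9 with a row were tested, with summed levels of 5.32 to 27.4 FPKM over all libraries. PECAM1 and ERG fell in BF cells by day 2 (lost without BF-2d replicate 2 for PECAM1, log2 −0.99, and without any BF-0d library or BF-2d replicate 1 or 2 for ERG, −0.90 to −1.20), CLDN5 fell there over 8 days, and ERG carried most of the sum at 6.41 to 19.97 FPKM. The muscle list had 1 of 8 genes tested, DES, which encodes the filament protein desmin found in muscle and pericytes. DES was 37.0 FPKM in IMF-0d and 1.69 FPKM in IMF-8d cells, higher in IMF than in BF cells on each day, although the day 2 call was lost without BF-2d replicate 1 or 2 or IMF-2d replicate 1 or 3 (log2 0.82 to 1.23) and the day 8 call without IMF-8d replicate 3 (adjusted p = 0.0107). Of 10 leukocyte genes, with summed levels of 3.85 to 20.1 FPKM over all libraries, 5 were tested, and CORO1A alone was called (0.116 to 3.12 FPKM over 8 days in BF cells, with a BF-8d mean of 1.70 FPKM without replicate 2). The part of such cells in the members' results was not tested.

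The order of the groups differed from member to member. For PDGFRB the 4 BF groups and for ENG the 4 IMF groups lay above every library of the other depot. Within those 4, neighbours in the order overlapped, but BF-4d was above all BF-2d and BF-0d libraries for PDGFRB, and IMF-4d above all IMF-8d and IMF-0d libraries for ENG. PDGFRA was ordered by day in IMF cells, with IMF-8d overlapping BF-8d, and with BF-0d and IMF-0d overlapping at the bottom. NT5E ran from IMF-0d, IMF-8d and IMF-2d down to BF-0d, with only the neighbours BF-4d and IMF-4d and the neighbours BF-8d and BF-2d overlapping. DPP4 had BF-0d, BF-8d, IMF-0d and IMF-8d in that order with no overlap between neighbours, and then the 4 groups of days 2 and 4 together. F3 had BF-4d and BF-0d overlapping on top, through BF-4d replicate 3 alone, since the other BF-4d libraries were below every BF-0d library, and IMF-8d alone at the bottom. PI16 fell from IMF-0d to BF-8d with overlap between IMF-0d and IMF-2d and between IMF-4d and BF-0d only.

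Genes whose profile over the 24 libraries was most like that of a member were listed by Pearson's r of the log2 values among about 10086 genes that reached 1 FPKM in some group. They were ZFP36L1 (r = 0.949), ARRDC4 and ANKRD10 for PDGFRA, HOXC4 (0.954), DYRK3 and MLLT3 for PDGFRB, FOXP4 (0.947), GPC6 and CAPN6 for ENG, and CDH2 (0.937), KCNMA1 and TUBB3 for NT5E. ELMO3 (0.897), DUSP8 and PLCL2 came first for DPP4, and DOCK4 (0.836), PTGER4 and B3GALNT1 for F3. For PI16 they were ANKRD29 (0.988), GLIS2 and TPM1, and for CD34 ANKRD29 (0.972), TPM1 and LMOD1, so that both lists held ANKRD29 and the tropomyosin gene TPM1. MOXD1 (0.883), PAX1 and SNAPC3 were closest to DLK1, whose values are low. Among the members themselves PI16 ran against PDGFRA (r = −0.805) and PDGFRB (−0.722), and ENG against PDGFRB (−0.782). These values describe libraries that share depots and days and carry no test.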

How the data were processed

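Pig preadipocyte mRNA libraries (24, in 8 groups of 3) were analysed. The deposited values were FPKM, made by the authors by alignment with HISAT2 to Sscrofa11.1 and quantification with StringTie 1.3.4d (the processing notes also name DESeq2 1.6.3, the authors' tool for differential expression). Normalization had therefore removed library size, and the read depth is unknown. Genes were named through a table of Ensembl IDs and symbols. The 16135 of 25462 genes whose FPKM summed to more than 1 over the libraries were tested as log2(FPKM + 1) with limma 3.58.1 in R 4.3.3 (1 mean per group, eBayes with trend and robust), in 16 contrasts, and called at an adjusted p (Benjamini-Hochberg, over all tested genes) under 0.01 with a log2 change of 1 or more in either direction. In simulated data with independent noise, the model recovered most of the larger known changes, which were set only in genes that were not low. Outlying libraries and changes of low genes were not simulated.

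Members and lists were chosen with earlier results of these data known. All members are named. From each neighbouring list, up to 4 called genes with the largest fold changes were named (others only where a count or a cell type check needed them), and for likeness 3 genes per member. Alternatives covered the pseudocount, filter, scaling, libraries fitted, moderation, a replicate block and each library left out. Sequences came from the RefSeq annotation of Sscrofa11.1, 250 bases before each start. Small RNA libraries were not analysed here. The values of 1 gene of a neighbouring list are not reported here.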

Additional observations from a re-analysis of the deposited data

Results flagged for a closer look

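For 4 members the change over time differed between the depots in a test of the difference itself, the IMF change minus the BF change in limma (4 of 9 members in at least 1 contrast, beside 12.2% of all tested genes). Of these values, 4 belong to NT5E, at −1.11 in the first interval (days 0 to 2), −1.40 in the second (days 2 to 4), 1.20 in the third (days 4 to 8) and −1.31 over the 8 days, so that the depot difference closed by day 4 and opened again. PI16 had 1.84, 1.67 and −2.54 in the 3 intervals, and its falls were called in the first and second intervals in BF cells and in the third in IMF cells. F3 had 2.57 in the first interval, when it fell in BF cells and had a log2 change of 0.63 in IMF cells, and −1.83 in the second. DPP4 had 1.32 in the first interval, when it fell in both depots, and −1.67 in the third, when its rise was called in BF cells. When each of the 12 libraries of the groups compared was left out in turn, the first and second PI16 calls were kept in 5 and 4 of 12 fits and the second F3 call in 4 of 12, and the third PI16 call was lost with 0.1 FPKM added in place of 1. All values are log2 differences of FPKM + 1 on 3 libraries per group.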

How the results depend on the processing

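The model of all libraries called 43 member comparisons, and 1419 alternative values were computed for them. Of these 1358 stayed on the same side of the threshold, 61 lost the call and 0 reversed. They include fits without a library outside the groups compared, 18 of 24 for 2 groups and 12 of 24 for a difference between changes. In those fits the log2 change cannot move, so it could not reverse. Fitting only the libraries of the groups compared kept 29 of the 43, and the counts that moved by over 1.5 times were those between successive days in BF cells (3 in place of 7) and for the difference between the depots' changes (5 in place of 11). Leaving out each library in turn gave 7 to 8 calls between days in BF cells, 2 to 2 in IMF cells, 6 to 6 between day 0 and day 8, 16 to 17 between depots and 7 to 11 for the difference between changes, with the 7 reached without IMF-2d replicate 3. Calls kept under the other settings were 41 with 0.1 FPKM added, 41 without the filter, 43 with a stricter filter, 41 with median ratio scaling, 40 with quantile normalization and 43 without trend and robust. Whether replicate numbers pair the samples was not settled. Deviations from the group means correlated above 0.1 in 3 of 12 pairs between depots (r of −0.088 to 0.229). Between days this held in 2 of 12 pairs for BF (−0.199 to 0.118) and 3 of 12 for IMF (−0.325 to 0.556). Such correlations cannot exclude that replicates share a piglet. With the replicate block 39 calls were kept within depots and 43 with a block shared by the depots. The block within depots sets each depot difference at the first replicate number, not at the group means. Its losses among depot calls therefore do not measure blocking alone. Limits are 3 libraries per group, no read counts, and low values of CD34, DLK1 and, on late days, PI16, for which the amount added before the logarithm changed calls. With 0.1 FPKM added, 2 differences between the depots' PI16 changes lost their calls, and 1 of PI16, 5 calls of CD34 and 4 of DLK1 were gained.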
